A study of Mus musculus with 3 samples.

Results

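The genes described here are 10 mouse genes of the piRNA pathway and of transposon silencing in germ cells: Piwil2, Piwil4, Tdrd1, Tdrd5, Tdrd7, Tdrd9, Asz1, Mael, Ddx25 and Morc1. They were chosen by name, with earlier results of these data known, so the counts below are not a blind test of the genes. Probes were assigned to them through the accession of each probe in an NCBI RefSeq gene table. Of the 41174 noncontrol probes of the array, 9 matched 7 of the 10 genes, which are 7 of the 16535 genes named on the array. Tdrd1 and Ddx25 had 2 probes each, and Piwil4, Tdrd5 and Tdrd9 matched none and are not analysed here. Total RNA of male gonads from mouse embryos at embryonic day 14.5, of a line labelled MCH, was hybridised to Agilent one-colour arrays. Each genotype had 2 arrays, which the design text calls biological duplicates. The double knockout embryos were Cyp26b1-/-/Stra8-/-, the Cyp26b1 knockout embryos were Cyp26b1-/-/Stra8+/+ and the wild type embryos were Cyp26b1+/+/Stra8+/+. No drug or other treatment is labelled, and the sources used here do not give how the alleles were made or how many embryos went into an array. The Cyp26b1 enzyme breaks down retinoic acid, which keeps it low in the fetal testis, and Stra8 is a gene induced by retinoic acid that germ cells need to enter meiosis. The comparisons therefore ask what loss of Cyp26b1 did to these transcripts, and how they stood when Stra8 was also lost.

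PIWI proteins are Argonaute proteins of the germ line that bind piRNAs, small RNAs many of which match transposons. In fetal male germ cells of the mouse, Piwil2 (MILI) cuts transposon transcripts in granules between mitochondria, and Piwil4 (MIWI2) carries piRNAs into the nucleus, where matching transposon copies gain DNA methylation. Tudor domain proteins such as Tdrd1 and Tdrd9 bind PIWI proteins, scaffolds such as Asz1 hold the granules together, and nuclear factors such as Morc1 act on transposon silencing at the chromatin.

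Levels are log2 signals from which each array's own 75th percentile was subtracted, so that 0 is the upper quartile of that array. Upper quartiles of the 6 arrays lay between 997 and 1536 signal units, and 62.6% to 69.2% of spots were well above background. All 9 probes of the piRNA pathway genes were well above background on all 6 arrays, and 0 of them were saturated. Each genotype lay on 1 slide of its own, and the Cyp26b1 knockout slide was scanned on another day than the other slides, so slide and genotype cannot be told apart in any comparison. The probe of the targeted gene Cyp26b1 had levels of 4.11 and 3.91 in the double knockout and 4.27 and 3.83 in the Cyp26b1 knockout, against 4.03 and 3.83 in wild type. These levels overlap, and where the probe lies relative to the deleted part is not given, so it does not check the labels. Stra8 had levels of 5.98 and 6.14 on the arrays labelled double knockout and 7.19 and 7.04 on those labelled Cyp26b1 knockout, against 3.73 and 2.41 in wild type. The arrays labelled as Stra8-/- thus kept signal on this probe, at 2.98 above wild type on the log2 scale (limma, adjusted p = 0.00380). Where the Stra8 probe lies relative to the deleted part is not given either, and the groups are called by their labels throughout.

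Promoter windows give the sequence context of these genes and are shown for 4 genes whose transcripts were measured. The windows run from 250 bases before to 50 bases after an annotated start, as given by RefSeq on assembly GRCm38.p6, which is not the build of the array annotation. Of the 10 genes, 8 had at least 1 window, 13 windows in all. The letters searched for, on both strands, were the E-box CACGTG, which basic helix-loop-helix factors can bind, the E2F-type letters TCCCGC, and AGGTCA and AGTTCA, which are half-sites of retinoic acid receptors. The E-box stood in 5 of the 13 windows, which were 2 overlapping windows of Tdrd1 and 1 window each of Tdrd9, Mael and Ddx25, and in 7.15% of 32851 promoter windows of all genes. TCCCGC stood in 3 windows (Tdrd5, Mael and Ddx25) and in 19.98% of all windows. AGGTCA stood in 2 windows (Tdrd7 and Tdrd9) and in 16.3% of all windows, and AGTTCA in 0 of the 13 and in 14.0% of all. In the sequences the capitals mark CACGTG and TCCCGC or its reverse complement GCGGGA. The Tdrd1 window is chr19:56825959-56826258 on the plus strand, with the E-box beginning 11 bases before the start. The Mael window is chr1:166238695-166238994 on the minus strand, with the E-box beginning 223 bases before the start and E2F-type letters 143 bases before it and 12 bases after it. The Ddx25 window is chr9:35558421-35558720 on the minus strand, with E2F-type letters beginning 128 bases before the start and the E-box 38 bases after it. The Asz1 window is chr6:18109012-18109311 on the minus strand and holds none of the 4 sets of letters. The 4 windows hold 20 (Tdrd1), 24 (Mael), 41 (Ddx25) and 17 (Asz1) CG dinucleotides, against a median of 7 over all promoter windows. Of all promoter windows, 73.5%, 80.0%, 96.5% and 68.6% held fewer than these, in the same order. The windows not shown hold from 0 (Piwil4) to 48 (Tdrd5), and the other windows of Tdrd1 hold 25 and 3. A match of letters is a description of the window and not a binding site.
Tdrd1: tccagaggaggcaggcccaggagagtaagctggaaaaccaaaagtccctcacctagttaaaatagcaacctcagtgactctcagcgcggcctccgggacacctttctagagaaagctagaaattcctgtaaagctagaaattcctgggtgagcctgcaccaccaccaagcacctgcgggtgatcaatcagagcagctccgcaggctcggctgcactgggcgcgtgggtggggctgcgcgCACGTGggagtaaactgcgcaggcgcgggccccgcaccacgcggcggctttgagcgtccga
Mael: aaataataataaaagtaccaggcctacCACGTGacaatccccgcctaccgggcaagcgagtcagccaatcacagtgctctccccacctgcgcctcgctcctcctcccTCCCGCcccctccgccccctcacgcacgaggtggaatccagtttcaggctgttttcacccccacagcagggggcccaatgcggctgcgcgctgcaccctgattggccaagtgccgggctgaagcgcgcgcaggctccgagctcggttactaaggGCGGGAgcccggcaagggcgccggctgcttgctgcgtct
Ddx25: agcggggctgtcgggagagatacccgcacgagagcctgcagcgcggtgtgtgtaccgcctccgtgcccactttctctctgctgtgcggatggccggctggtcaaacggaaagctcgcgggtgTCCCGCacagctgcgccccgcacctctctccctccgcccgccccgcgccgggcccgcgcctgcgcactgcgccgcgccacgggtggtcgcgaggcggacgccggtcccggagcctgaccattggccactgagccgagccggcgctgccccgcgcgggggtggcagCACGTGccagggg
Asz1: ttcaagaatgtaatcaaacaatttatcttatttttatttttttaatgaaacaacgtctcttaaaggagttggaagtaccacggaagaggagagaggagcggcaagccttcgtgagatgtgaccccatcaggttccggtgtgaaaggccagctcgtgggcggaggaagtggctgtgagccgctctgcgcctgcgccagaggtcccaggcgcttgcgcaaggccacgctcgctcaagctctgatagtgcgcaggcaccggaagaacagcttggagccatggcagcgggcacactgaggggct

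In Cyp26b1 knockout gonads all 7 measured genes were lower than in wild type, from 1.66-fold for Tdrd7 to 9.84-fold for Morc1. All 7 passed the test (limma, Benjamini-Hochberg adjusted p below 0.05 over 22256 features), where 29.6% of all features were called lower. At a change of at least 2-fold, 5 of the 7 were called lower (Morc1, Tdrd1, Ddx25, Mael and Piwil2), where 9.34% of all features were. The median log2 change of the 7 genes was -1.07, and that of all features was -0.09. Both Cyp26b1 knockout arrays lay below both wild type arrays for all 7 genes, which held for 44.1% of all features. Replicate 1 was the lower array for 6 of the 7 genes in the Cyp26b1 knockout and for 7 in wild type. Some of these gaps were small, at 0.06 for Tdrd7 in the Cyp26b1 knockout and 0.02 for Mael in wild type. In the double knockout replicate 1 was the higher array for Tdrd1, Mael and Ddx25. The share of all features with replicate 1 lower is not given here. Most of the genes went the same way between the arrays of the Cyp26b1 knockout and of wild type, and their 7 calls are not separate evidence. In whole gonads, fewer germ cells and less RNA per germ cell cannot be told apart. How many embryos stand behind an array is not labelled, so the p-values cover the spread between these arrays and no more.

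Morc1 encodes a nuclear ATPase that germ cells of the mouse need for transposon repression and DNA methylation of transposons. Its level was -0.75 and 0.36 in the Cyp26b1 knockout, against 3.0 and 3.20 in wild type. The Cyp26b1 knockout arrays were far apart from each other, by 1.11, yet both were more than 2 units below wild type. The change was -3.30 ± 0.32 on the log2 scale (SE, 95% interval -4.05 to -2.54, adjusted p = 0.000295). Only 0.377% of features had a lower change in this comparison.

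Piwil2, the PIWI protein that cuts transposon transcripts, had levels of -0.22 and 0.16 in the Cyp26b1 knockout, against 0.87 and 1.11 in wild type. The knockout arrays were both lower, and its change of -1.02 ± 0.15 (SE, 95% interval -1.38 to -0.66, adjusted p = 0.00155) was a 2.03-fold lower signal. Its partner Tdrd1, a multiple Tudor domain protein that binds the methylated arginines of Piwil2, changed further. The level of Tdrd1 was 1.48 and 2.18 in the Cyp26b1 knockout, against 3.71 and 3.97 in wild type, a 4.03-fold lower signal (log2 change -2.01 ± 0.21, 95% interval -2.51 to -1.51, adjusted p = 0.000382). The gap between the Cyp26b1 knockout arrays was again wide for Tdrd1, but it did not reach the wild type arrays.

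Tdrd7, a Tudor domain protein of germ granules that shapes the chromatoid body in later spermatids, changed least. It stood at 2.66 and 2.72 in the Cyp26b1 knockout, against 3.28 and 3.56 in wild type. The change was -0.73 ± 0.11 (SE, 95% interval -0.98 to -0.48, adjusted p = 0.00137), and 16.4% of all features had a lower one. Asz1 (GASZ), a scaffold on the outer membrane of mitochondria, was at 0.27 and 0.21 in the Cyp26b1 knockout, against 1.03 and 1.35 in wild type. The knockout arrays lay close together for Asz1, and the change was -0.95 ± 0.15 (SE, 95% interval -1.31 to -0.60, adjusted p = 0.00200).

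Mael, a germ granule protein with an HMG box that is needed for piRNA-directed silencing, had levels of 3.57 and 3.77 in the Cyp26b1 knockout, against 4.74 and 4.76 in wild type. Its wild type arrays were nearly equal, and the knockout signal was 2.11-fold lower (log2 change -1.07 ± 0.092, 95% interval -1.29 to -0.86, adjusted p = 0.000206). Ddx25 (GRTH), a DEAD-box RNA helicase known for its role in spermatids, stood at 2.35 and 2.52 in the Cyp26b1 knockout, against 4.33 and 4.41 in wild type. Of the 7 genes Ddx25 had the smallest p, with a change of -1.93 ± 0.10 (SE, 95% interval -2.17 to -1.70, adjusted p = 6.43e-05). Its signal was 3.82-fold lower in the Cyp26b1 knockout.

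**Figure D1:**
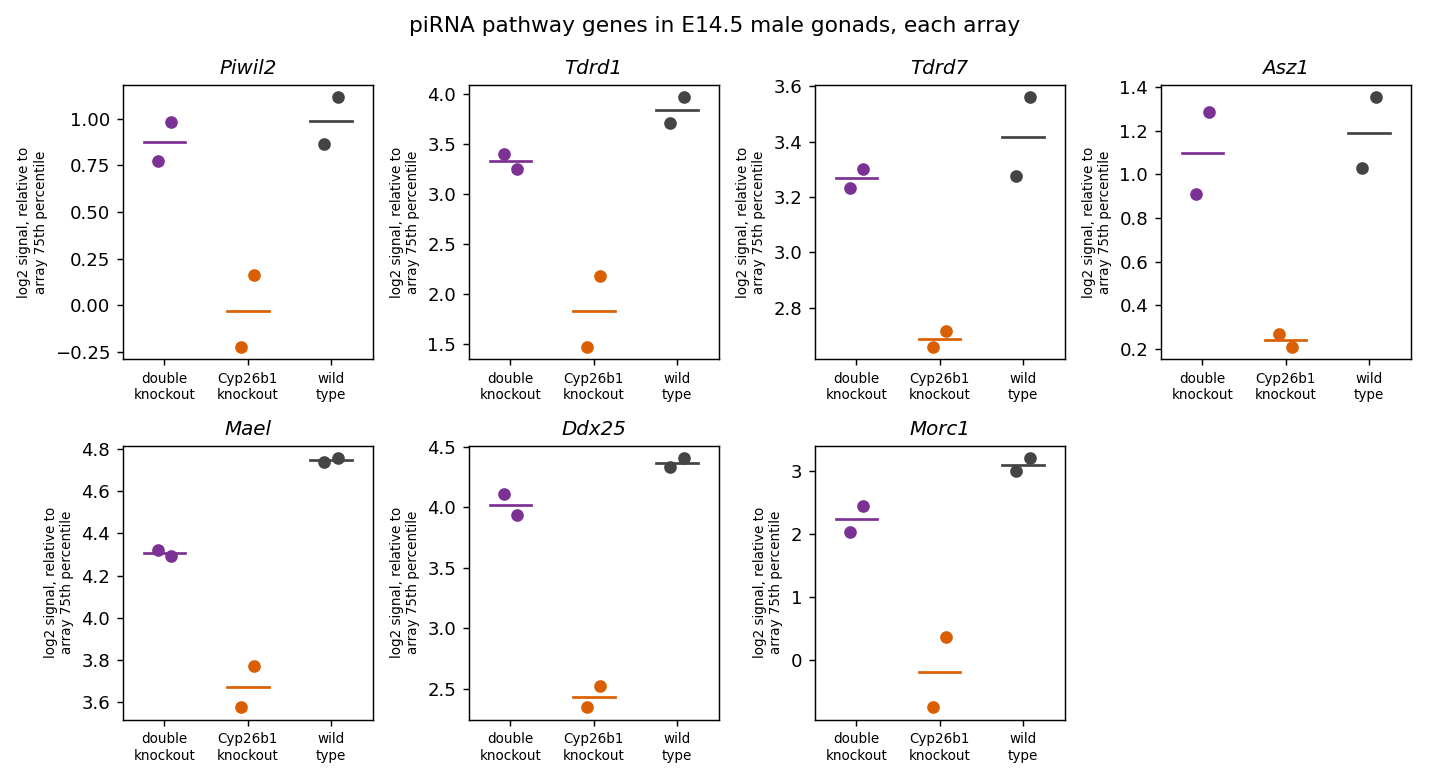
Log2 signal relative to the array's 75th percentile (vertical axes, each panel on its own scale) for the 7 measured genes in the double knockout, the Cyp26b1 knockout and wild type. Points are single arrays (2 per genotype) and bars are means. In every panel both Cyp26b1 knockout points lie below all 4 other points.

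In double knockout gonads the same 7 genes were higher than in Cyp26b1 knockout gonads, from 1.49-fold for Tdrd7 to 5.40-fold for Morc1. All 7 passed the test, where 25.2% of all features were called higher. At a change of at least 2-fold, 3 were called higher (Morc1, Ddx25 and Tdrd1), where 4.05% of all features were. Both double knockout arrays lay above both Cyp26b1 knockout arrays for all 7 genes, which held for 41.2% of all features. The median log2 change of the 7 genes was 0.91, and that of all features was 0.09. This comparison and the one before share the Cyp26b1 knockout arrays, so a low value on those arrays enters both.

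Morc1 stood at 2.03 and 2.44 in the double knockout, against a mean of -0.20 ± 0.78 in the Cyp26b1 knockout (SD, n = 2). Its change of 2.43 ± 0.32 (SE, 95% interval 1.68 to 3.19, adjusted p = 0.00147) was exceeded by 0.265% of features. Ddx25 followed with 4.11 and 3.93 in the double knockout, against a mean of 2.43 ± 0.13 in the Cyp26b1 knockout (SD, n = 2). The helicase transcript was thus 3.0-fold higher (log2 change 1.59 ± 0.10, 95% interval 1.35 to 1.82, adjusted p = 0.000306). Tdrd1 had 3.41 and 3.26 in the double knockout, against a mean of 1.83 ± 0.50 in the Cyp26b1 knockout (SD, n = 2). The Tudor domain partner of Piwil2 was 2.84-fold higher, a log2 change of 1.5 ± 0.21 (SE, 95% interval 1.01 to 2.0, adjusted p = 0.00182).

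The other genes changed by less than 2-fold. Piwil2 was at 0.77 and 0.98 in the double knockout, against a mean of -0.03 ± 0.27 in the Cyp26b1 knockout (SD, n = 2), with a log2 change of 0.91 ± 0.15 (SE, adjusted p = 0.00358). Asz1, the mitochondrial scaffold, stood at 0.91 and 1.29 in the double knockout, against a mean of 0.24 ± 0.04 in the Cyp26b1 knockout (SD, n = 2), with a log2 change of 0.86 ± 0.15 (SE, adjusted p = 0.00425). These changes of the slicer and the scaffold were 1.87-fold and 1.82-fold. Mael had 4.32 and 4.29 in the double knockout, against a mean of 3.67 ± 0.14 in the Cyp26b1 knockout (SD, n = 2), and was 1.55-fold higher (log2 change 0.63 ± 0.092, adjusted p = 0.00195). Tdrd7 was at 3.23 and 3.30 in the double knockout, against a mean of 2.69 ± 0.04 in the Cyp26b1 knockout (SD, n = 2), with a log2 change of 0.58 ± 0.11 (SE, adjusted p = 0.00496). Tdrd7 was the only gene of the 7 to lose this call under the scaling of the authors' table, with a log2 change of 0.28 and an adjusted p of 0.0724.

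Set against wild type, Mael was lower in the double knockout and the other 6 genes did not pass the test, where 6.56% of all features were called lower. At an unadjusted p under 0.05 by limma, 4 of the 7 genes were lower, but the share of all features at that threshold is not given here. Alternative settings called from 0 to 3 genes. All 7 estimates were below 0, as were those of 11640 of the 22256 features. The median log2 change of the 7 genes was -0.35, and that of all features was -0.02. For 4 genes (Tdrd1, Mael, Ddx25 and Morc1) both double knockout arrays lay below both wild type arrays, which held for 32.4% of all features. These 4 genes also had both double knockout arrays above both Cyp26b1 knockout arrays, an intermediate position shared by 13.3% of all features.

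Mael averaged 4.31 ± 0.020 in the double knockout and 4.75 ± 0.014 in wild type (SD, n = 2 each). The Mael signal was 1.36-fold lower (log2 change -0.44 ± 0.092, 95% interval -0.65 to -0.23, adjusted p = 0.0252). The call depended on settings: it was lost with the array median as the scale (adjusted p = 0.0709), with no filter on dim probes (0.0532), with eBayes without trend (0.0683) and when any 1 of the double knockout or wild type arrays was left out (0.0844 to 0.141).

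For the remaining genes the intervals bound what could have been missed. Morc1 averaged 2.23 ± 0.29 in the double knockout and 3.1 ± 0.15 in wild type (SD, n = 2 each), with a log2 change of -0.87 (95% interval -1.62 to -0.11, adjusted p = 0.125). Tdrd1 averaged 3.33 ± 0.11 in the double knockout and 3.84 ± 0.18 in wild type (SD, n = 2 each), with a log2 change of -0.51 (95% interval -1.0 to -0.010, adjusted p = 0.162). Neither of these intervals, which are not adjusted, reaches 0. Ddx25 averaged 4.02 ± 0.13 in the double knockout and 4.37 ± 0.053 in wild type (SD, n = 2 each), with a log2 change of -0.35 (95% interval -0.58 to -0.11, adjusted p = 0.0679), an interval that does not reach 0 either. The changes of the other genes had intervals on both sides of 0: -0.15 for Tdrd7 (-0.40 to 0.10), -0.11 for Piwil2 (-0.47 to 0.25) and -0.09 for Asz1 (-0.45 to 0.27). For Piwil2 and Asz1 the sign also turned under some settings, to 0.02 and 0.04 with the array median as the scale.

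**Figure D2:**
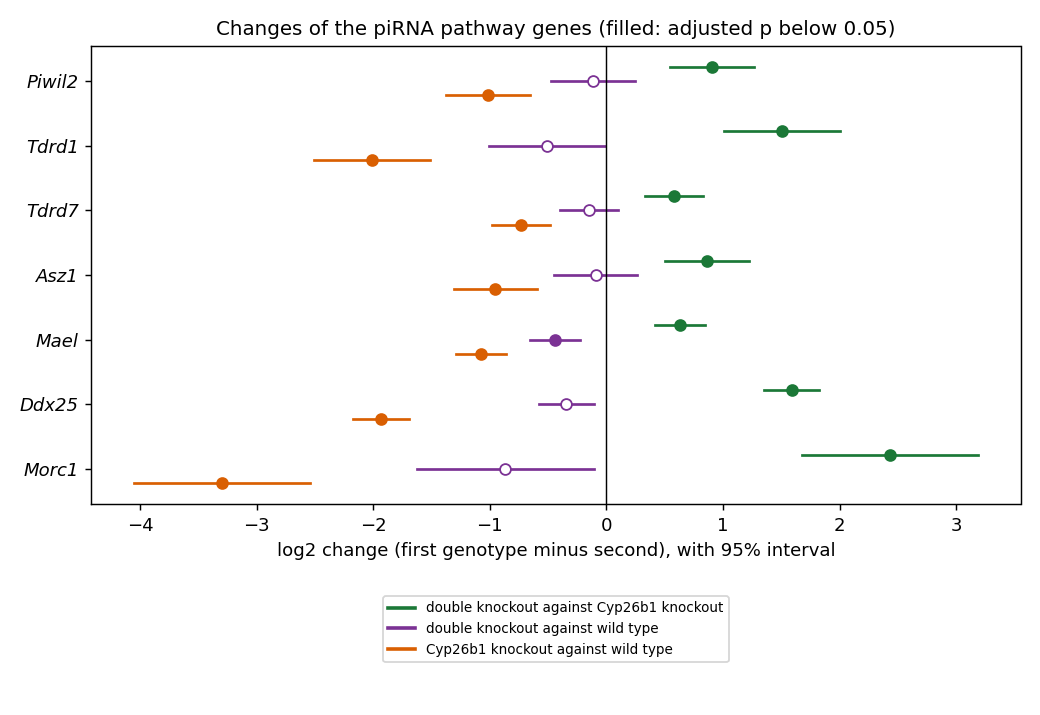
Log2 change of each of the 7 genes (first genotype minus second, horizontal axis) with its 95% interval, for the double knockout against the Cyp26b1 knockout, the double knockout against wild type and the Cyp26b1 knockout against wild type. Filled points have an adjusted p below 0.05: all 7 in both comparisons that hold the Cyp26b1 knockout, and Mael alone in the double knockout against wild type.

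Tdrd1 and Ddx25 could each be read on a second probe. The second Ddx25 probe (A_52_P143193) had levels of 1.25 and 0.91 in the double knockout and -0.05 and 0.26 in the Cyp26b1 knockout, against 1.46 and 1.56 in wild type. With every probe as its own feature, it was lower in the Cyp26b1 knockout than in wild type by a log2 change of -1.41 (adjusted p = 0.000304) and higher in the double knockout than in the Cyp26b1 knockout by 0.98 (adjusted p = 0.00187). Both Ddx25 probes thus passed in the same comparisons. The second Tdrd1 probe (A_51_P478238) was dimmer, at -2.49 and -2.64 in the double knockout and -3.83 and -2.57 in the Cyp26b1 knockout, against -2.22 and -2.09 in wild type. Its change was -1.05 for the Cyp26b1 knockout against wild type (adjusted p = 0.0396). For the double knockout against the Cyp26b1 knockout it was 0.64 ± 0.35 (SE), which did not pass (adjusted p = 0.179), and Cyp26b1 knockout replicate 2 lay between both double knockout arrays. The probes of Tdrd1 carry different accessions (NM_001002241 for the brighter and NM_031387 for the dimmer).

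**Figure D3:**
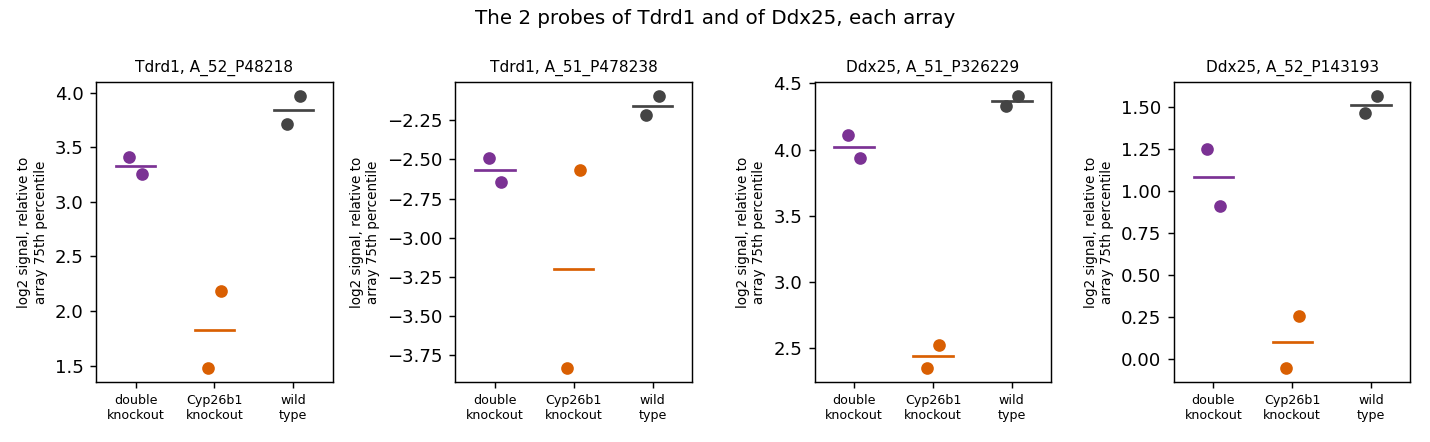
Log2 signal relative to the array's 75th percentile (vertical axes, each panel on its own scale) on each probe of Tdrd1 and of Ddx25, for the double knockout, the Cyp26b1 knockout and wild type. Points are single arrays and bars are means. On the dimmer Tdrd1 probe 1 Cyp26b1 knockout array lies at -2.57, between the double knockout arrays.

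Partners of the piRNA pathway were taken from a written list of 27, of which 19 had a probe and 17 were tested. The list is broad and also holds genes described by other roles in germ cells, such as Nanos2 and Nanos3. In the Cyp26b1 knockout 8 of the 17 were lower than in wild type and 3 were higher, with a median log2 change of -0.42, where 29.6% of all features were lower and 21.6% higher. In the double knockout 2 were lower (Nanos2 and Piwil1) and 2 higher (Fkbp4 and Wdr77) than in wild type (median -0.10), each a call lost when some single array was left out, and 6.56% of all features were lower and 5.3% higher there. Between the knockouts, 7 stood higher and 1 stood lower on the double knockout side (median 0.28), where 25.2% of all features were higher and 18% lower. This list did not move as one: it held genes that fell, genes that rose and 6 that did not pass in the Cyp26b1 knockout.

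Among those that fell, Nanos2, an RNA-binding protein that directs germ cells to the male fate, had levels of -3.29 and -3.58 in the Cyp26b1 knockout, against -0.62 and -0.38 in wild type (log2 change -2.93, adjusted p = 0.000224). In the double knockout Nanos2 was at -1.91 and -1.11, which was 1.92 above the Cyp26b1 knockout (adjusted p = 0.00150). Exd1, a partner of Tdrd12 in piRNA biogenesis, stood at 1.45 and 1.34 in the double knockout and 0.27 and 0.14 in the Cyp26b1 knockout, against 1.45 and 1.68 in wild type. Exd1 was thus lower in the Cyp26b1 knockout than in wild type (log2 change -1.36, adjusted p = 0.000175) and higher in the double knockout than in the Cyp26b1 knockout (1.19, adjusted p = 0.000541). Nanos3, which protects early germ cells from death, had changes of -1.58 (adjusted p = 0.000636) and 1.95 (adjusted p = 0.000626) in the same comparisons. Henmt1, the methyltransferase that protects piRNA ends and a gene singled out after its values were seen, had changes of -2.94 (adjusted p = 0.000567) and 2.51 (adjusted p = 0.00168). Its levels were low, at -1.38 and -1.49 in the double knockout and -4.56 and -3.32 in the Cyp26b1 knockout, against -1.06 and -0.94 in wild type. The Cyp26b1 knockout arrays of Henmt1 lay far apart, which leaves the size of both changes uncertain. Ddx4 (Vasa), a helicase of germ granules that is also a general germ cell marker and was likewise singled out afterwards, changed by -0.46 in the Cyp26b1 knockout against wild type (adjusted p = 0.00680), a call lost without wild type replicate 2 (adjusted p = 0.0542).

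Other genes of the list departed from that order. Piwil1 (MIWI), the PIWI protein of later spermatocytes and spermatids, stood at -3.47 and -4.06 in the double knockout and -4.34 and -4.00 in the Cyp26b1 knockout, against -2.35 and -2.09 in wild type. It was lower than wild type in both knockouts (log2 change -1.55, adjusted p = 0.00932, in the double knockout and -1.95, adjusted p = 0.000710, in the Cyp26b1 knockout), and its 0.41 between the knockouts did not pass (adjusted p = 0.212). The double knockout call of Piwil1 was lost without either wild type array (adjusted p = 0.0507 and 0.0814). Fkbp4, a co-chaperone of Hsp90, went the other way: it was at 2.96 and 2.85 in the double knockout and 3.70 and 3.51 in the Cyp26b1 knockout, against 2.44 and 2.54 in wild type. Its change was 1.12 in the Cyp26b1 knockout against wild type (adjusted p = 0.000204) and -0.70 in double knockout against Cyp26b1 knockout (adjusted p = 0.00160).

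**Figure D4:**
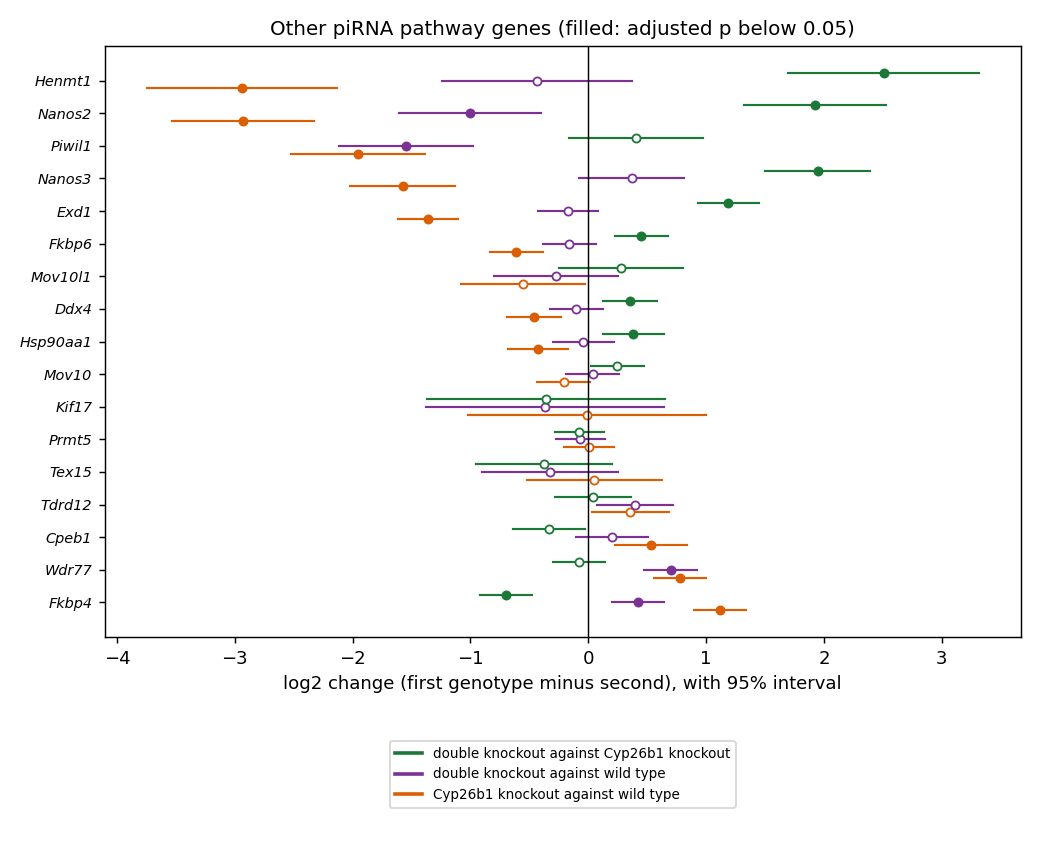
Log2 change (first genotype minus second, horizontal axis) with its 95% interval for the 17 tested genes of the piRNA partner list, for the double knockout against the Cyp26b1 knockout, the double knockout against wild type and the Cyp26b1 knockout against wild type. Filled points have an adjusted p below 0.05. In the Cyp26b1 knockout against wild type, 8 genes at the top have filled points left of 0 and 3 at the bottom have filled points right of 0.

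A list of genes for DNA methylation and chromatin repression of transposons had 27 tested genes, with 6 lower and 8 higher in the Cyp26b1 knockout than in wild type (median log2 change 0.13), where 29.6% of all features were lower and 21.6% higher. In the double knockout 3 were lower and 2 higher than in wild type (median 0.12), where 6.56% and 5.3% of all features were, and 10 were higher and 6 lower than in the Cyp26b1 knockout (median 0.18), where 25.2% and 18% were. Dnmt3l, the cofactor of de novo DNA methylation in germ cells, had a larger change than any of the 7 piRNA pathway genes in both knockouts against wild type. It had levels of -1.10 and -2.16 in the double knockout and -3.88 and -2.94 in the Cyp26b1 knockout, against 3.55 and 3.69 in wild type. Both knockouts were far below wild type (log2 change -5.25, adjusted p = 0.000710, in the double knockout and -7.03, adjusted p = 7.21e-05, in the Cyp26b1 knockout), and between the knockouts Dnmt3l changed by 1.78 (adjusted p = 0.00893), less than Morc1 did. Setdb1, a histone H3 lysine methyltransferase that represses retrotransposons, was at -0.19 and -0.02 in the double knockout and 1.16 and 1.27 in the Cyp26b1 knockout, against -0.31 and -0.11 in wild type. Setdb1 thus rose in the Cyp26b1 knockout (1.42, adjusted p = 0.000166), where the piRNA pathway genes fell. Dnmt1, the maintenance DNA methyltransferase, also rose in the Cyp26b1 knockout, by 0.99 (adjusted p = 0.000208).

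Tudor domain proteins outside the pathway served as a further list of 13 tested genes. In the Cyp26b1 knockout 3 were lower and 6 higher than in wild type, with a median log2 change of 0.18. Of all features 29.6% were lower and 21.6% higher there. In the double knockout 1 passed against wild type, where 6.56% of all features were lower and 5.3% higher. This was Akap1, an anchoring protein of mitochondria, which was higher by 0.42 (limma, adjusted p = 0.0346). Akap1 lost that call when some single arrays were left out. Between the knockouts 5 were lower and 2 higher on the double knockout side (median -0.16), where 18% of all features were lower and 25.2% higher. Snd1, a nuclease with a Tudor domain found in many tissues, changed by 0.62 in the Cyp26b1 knockout against wild type (adjusted p = 0.00172) and by -0.83 in double knockout against Cyp26b1 knockout (adjusted p = 0.000959).

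Markers of the cells a fetal male gonad can hold were read on the same arrays. The germ cell marker Ddx4, the Sertoli cell markers Amh and Sox9 and the Leydig cell marker Star were well above background on all 6 arrays. Of 20 general germ cell markers tested, 6 were lower and 5 higher in the Cyp26b1 knockout than in wild type, with a median log2 change of -0.03. Of all features 29.6% were lower and 21.6% higher in that comparison, against which the marker counts here can be read. Their mean level per array was 0.89 and 1.30 in the double knockout and 1.30 and 0.73 in the Cyp26b1 knockout, against 0.93 and 0.97 in wild type. The mean of the 7 piRNA pathway genes was 2.68 and 2.79 in the double knockout and 1.34 and 1.70 in the Cyp26b1 knockout, against 2.99 and 3.19 in wild type. The germ cell marker means overlapped between the genotypes, while those of the 7 genes did not. The markers themselves moved both ways in the Cyp26b1 knockout against wild type: Sohlh2 (3.97) and Taf7l (1.84) were higher, and Dnd1 (-2.01) and Nanos3 (-1.58) were lower. Fetal Leydig cell markers had 6 of 9 lower in the Cyp26b1 knockout, with means of 3.72 and 3.49 in the double knockout and 3.24 and 3.55 in the Cyp26b1 knockout, against 4.05 and 3.99 in wild type. Mesonephros markers had 6 of 10 lower and 1 higher, with means of -2.20 and -2.53 in the Cyp26b1 knockout against -2.09 and -1.92 in wild type. Sertoli cell markers had 3 of 13 lower and 4 higher, with means of 2.22 and 2.17 in the Cyp26b1 knockout against 2.21 and 2.05 in wild type. Endothelial markers had 3 of 11 lower and 6 higher, interstitial markers 4 of 10 lower and 3 higher, and blood markers 3 of 9 lower and 2 higher. In double knockout against Cyp26b1 knockout, 3 germ cell markers were lower and 6 higher (median log2 change 0.14), and 1 Leydig cell marker was lower and 3 were higher, where 18% of all features were lower and 25.2% higher. Nanos3 and Ddx4 stand both in the germ cell marker list and in the piRNA partner list. The part of these cells in the changes of the piRNA pathway genes was not tested.

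**Figure D5:**
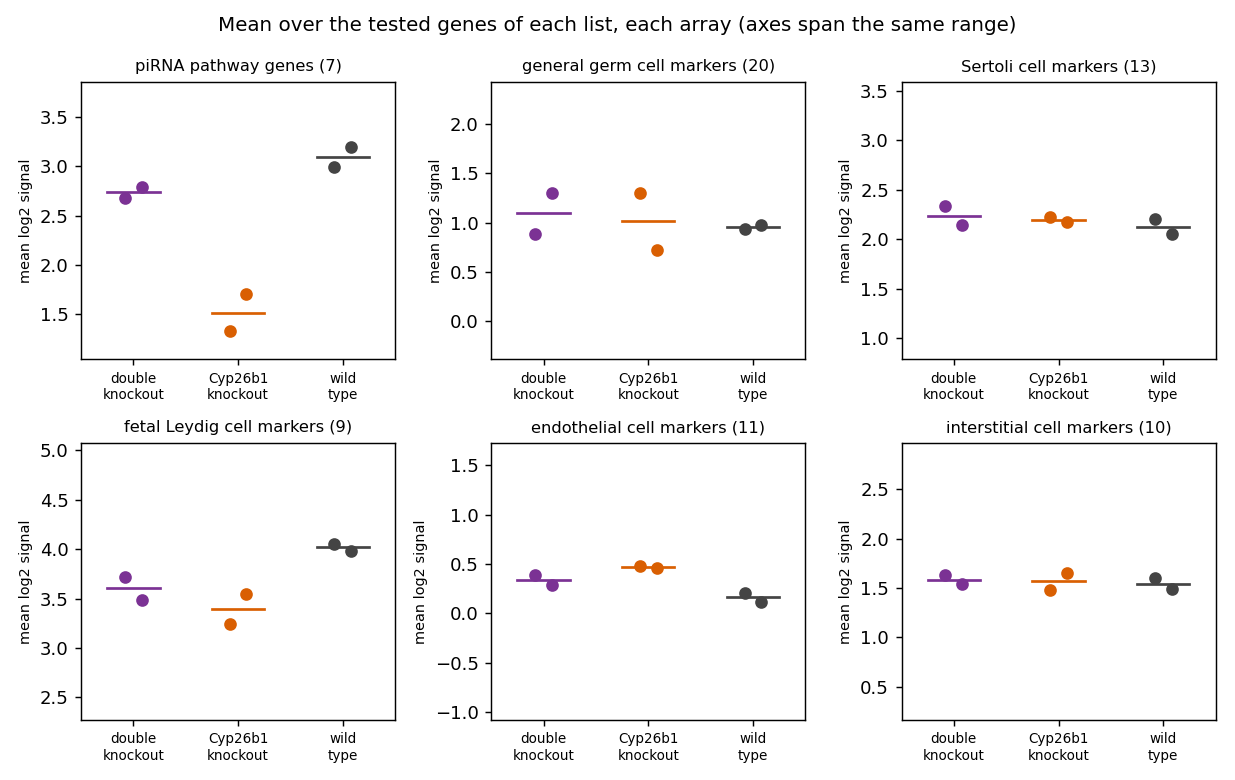
Mean log2 signal over the tested genes of each list (vertical axes, all spanning the same range) on each array, for the double knockout, the Cyp26b1 knockout and wild type. The number in each panel title is the number of genes, points are arrays and bars are means. The mean of the 7 piRNA pathway genes is lowest on both Cyp26b1 knockout arrays (1.34 and 1.70), while the general germ cell markers overlap between genotypes.

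The genes whose pattern lay closest to that of the 7 genes were ranked by the Euclidean distance, over the 6 arrays, between each gene's centred log2 values and the median of the 7 centred profiles. That median profile was 0.16 and 0.32 in the double knockout and -0.83 and -0.63 in the Cyp26b1 knockout, against 0.49 and 0.51 in wild type. The closest were Helb (0.124), Fryl (0.142), Csnk1g1 (0.162), Pramel12 (0.162), Igf1r (0.175), Zfp385b (0.186), Ep300 (0.188) and Pdgfra (0.189). The 7 genes themselves lay at distances from 0.307 (Piwil2) to 2.23 (Morc1), so each of these 8 was closer to the median profile than any of the 7. For Pdgfra the mean of all its probes gave a change of the opposite sign in double knockout against Cyp26b1 knockout.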

How the data were processed

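The deposited scanner files held spot intensities on a linear scale, read with Agilent Feature Extraction 9.5.3.1 per the file headers (9.5 per the submitters' processing notes). That software had subtracted background from the processed signal, per the file headers. The authors also deposited a table with 1 ratio column per genotype, whose centring and scaling between arrays are unknown here. It was used for a scaling alternative. The sources used here do not give the authors' own tests.

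Log2 processed signals were set relative to the 75th percentile of each array, without control spots and spots marked as outliers, and 25 probes then left without any spot on 1 or more arrays were dropped. Accessions, without versions, were matched to RefSeq genes of assembly GRCm38.p6: 23374 probes had 1 symbol, 0 several and 17800 none. The brightest probe over all arrays represented a gene. Features entered the test when both arrays of 1 or more genotypes had them well above background. One limma 3.58.1 fit in R 4.3.3 (lmFit, eBayes with trend) covered 6 arrays and 22256 features (13285 named), with 3 residual and 4.35 prior degrees of freedom. Benjamini-Hochberg adjustment ran over all of them, with a threshold of 0.05. The test was also run on 20 simulated sets, with 200 changed features among 22256. In these sets it recovered 14.5% to 16.1% of 1.5-fold changes, 45.7% to 48.4% of 2-fold changes and 79.3% to 79.7% of 4-fold changes. Of its calls there, 3.56% to 3.81% were false. The sets held a smaller share of changed features than the comparisons here called, so these rates may not carry over to them. A gene that did not pass may thus still have changed by 2-fold or by more, since 4-fold changes were not all recovered either. The number of arrays, 2 per genotype, limits the precision; the Pearson r between the arrays of a genotype, across probes, was 0.995 in the double knockout, 0.994 in the Cyp26b1 knockout and 0.996 in wild type. The labels do not say whether a file number pairs arrays across genotypes.

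Genes named beside the 10 come, by rule, from the 3 called genes with the smallest adjusted p of each list and comparison, and from the 8 closest profiles. Henmt1 and Ddx4, and 3 genes whose sign turned under an alternative, were named after their values were seen. The members, lists and rules were chosen with earlier results of these data known. Probe sequences and coordinates on the array's own build are not used here.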

Additional observations from a re-analysis of the deposited data

How the results depend on the processing

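The result for the 7 genes in the Cyp26b1 knockout against wild type kept 7 calls, all lower, in the 18 refits, and 5 passed at 2-fold. Double knockout against Cyp26b1 knockout had 7 called in these refits except 6 with the authors' scaling (Tdrd7 lost), and 3 passed at 2-fold. In the double knockout against wild type, where 1 gene (Mael) was called, 0 were called with array median scaling (2 at an unadjusted p under 0.05 by limma), with no filter on dim probes (3), with eBayes without trend (2), at an adjusted p below 0.01 (4) and at 2-fold (4). There, 2 were called with the authors' scaling (Mael and Ddx25), 2 with the file number as a replicate block (Mael and Morc1) and 3 with only the 2 genotypes compared (Mael, Tdrd1 and Morc1), and from 0 to 3 when each array was left out. The block changed no other call of the 7 genes; deviations of same-numbered arrays correlated at 0.108, 0.101 and 0.222, and 2 numbers per genotype do not settle a pairing. Of all features, the double knockout against wild type called 23.1% with the authors' scaling, 4.66% with no filter, 3.46% at 0.01, 4.4% at 2-fold and 3.13% to 12.4% with an array left out. The Cyp26b1 knockout against wild type called 32% with no filter, 33.1% at 0.01 and 16.5% at 2-fold, and the double knockout against the Cyp26b1 knockout 23.6% at 0.01 and 10.2% at 2-fold. Of the calls, 44.7% were higher in the double knockout against wild type, 70.5% with array median scaling and 13.4% with the authors' scaling; against the Cyp26b1 knockout these were 58.3%, 69.8% and 22.4%. Array median scaling moved the median of all features by over 0.1 to 0.11 in the double knockout against wild type and 0.20 against the Cyp26b1 knockout, and the authors' scaling to -0.22 in both. With the mean of all probes of a gene, the double knockout against the Cyp26b1 knockout turned to -0.30 for Adgre1, -0.20 for Lhx9 and -0.083 for Pdgfra. The cause of these shifts was not tested. With an array left out, the lone array of a genotype is assumed to vary like the others. The slide as a block was not run, since each slide holds 1 genotype, and normexp used the median signal.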

Other observations

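Of the 27 methylation and chromatin genes, most did not pass in the double knockout against wild type. Of those that did, Hells, a chromatin remodeller needed for DNA methylation of repeats, was at 2.53 and 2.66 in the double knockout and 2.51 and 2.5 in the Cyp26b1 knockout, against 1.61 and 1.5 in wild type, so that both knockouts stood above wild type (log2 change 1.04, adjusted p = 0.00118, in the double knockout). Mphosph8, a subunit of the HUSH complex that silences retrotransposons, was at 1.44 and 1.38 in the double knockout and 2.33 and 2.40 in the Cyp26b1 knockout, against 1.93 and 1.95 in wild type. Its change was -0.53 in the double knockout against wild type (adjusted p = 0.00803), a call lost without either wild type array (adjusted p = 0.0543 and 0.0663), and -0.95 against the Cyp26b1 knockout (adjusted p = 0.000450).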
